A study of Mus musculus with 8 samples.

Results

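The genes described here encode the subunits of the respiratory chain and of ATP synthase, measured by RNA-Seq in whole mouse pancreas. Members were chosen by the start of the gene symbol: Nduf and mt-Nd for complex I, Sdha to Sdhd for complex II, Uqcr and mt-Cytb for complex III, Cox4 to Cox8 and mt-Co for complex IV, and Atp5 and mt-Atp for complex V, without names marked as pseudogenes and without the Ndufaf assembly factors. This gave 98 of the 48709 genes in the files. Of these, 85 lie in the nuclear genome (38 of complex I, 4 of complex II, 8 of complex III, 18 of complex IV and 17 of complex V) and 13 in the mitochondrial genome (7 of complex I, 1 of complex III, 3 of complex IV and 2 of complex V). The symbol rule also takes in *Atp5s*, *Atp5sl* and *Cox7a2l*, which are named after the complexes and are not counted among their core subunits; *Cox7a2l* encodes a factor that joins complexes III and IV in supercomplexes.

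Complexes I to IV pass electrons from NADH and succinate to oxygen, and all except complex II pump protons out of the mitochondrial matrix as they do so. Complex V, the ATP synthase, lets the protons back and uses their flow to make ATP. The mitochondrial DNA encodes a small set of core subunits that are transcribed from long precursors inside the organelle, while the rest, including the whole of complex II, are made from nuclear genes and imported. Acinar cells of the pancreas depend on this ATP for the synthesis, packing and regulated release of digestive enzymes, and loss of mitochondrial ATP in response to fatty acid ethyl esters is a known feature of acinar injury by alcohol and fatty acids.

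Pancreata came from male mice aged 8 weeks, WT or cKO, in which Cre driven by the *Pdx1* promoter (active in the progenitors of acinar, duct and islet cells) recombines floxed *Pfkfb3* alleles (*Pdx1*-Cre; *Pfkfb3* fl/fl). *Pfkfb3* encodes a kinase that makes fructose 2,6-bisphosphate, an activator of glycolysis. Mice received normal saline or palmitoleic acid (POA) with ethanol, which produces severe acute pancreatitis by fatty acid ethyl esters (FAEE-SAP), and were examined at 24 hours. Each of the 4 groups (WT saline, cKO saline, WT FAEE-SAP, cKO FAEE-SAP) had 2 libraries from whole tissue, which holds leukocytes, vessels and fat beside the recombined epithelium. Per the study's methods, WT mice were bought from a supplier, while the floxed line was made in and bred with C57BL/6J mice. In every comparison between WT and cKO, genotype and mouse source therefore cannot be told apart.

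Read totals recovered from the deposited RPKM ranged from 22800000 to 37600000 per library. The acinar marker list (26 genes) was found in full and held 61.4% to 64.1% of all summed RPKM with saline, 49.0% and 49.5% in the WT FAEE-SAP libraries and 58.9% and 60.2% in the cKO FAEE-SAP libraries. Since RPKM is a share of a library, libraries were scaled to each other by the median ratio over genes, and values below are scaled RPKM unless called deposited. Without this scaling, the log2 difference of the median gene was 1.24 for FAEE-SAP against saline in WT and -0.91 for cKO against WT with FAEE-SAP. Scaled *Pfkfb3* did not separate the genotypes, and a value per gene does not show the deleted exons, so genotype refers to the labels. On scaled values, replicate 1 of cKO saline stood apart. It had the highest mitochondrial values of the 8 libraries and the highest sum of the erythroid list (342, against 57.3 to 177 in the other libraries). As deposited, replicate 2 of WT FAEE-SAP was above it in both. Its erythroid sum was 294 against 212, and its summed mitochondrial RPKM 6924 against 6502.

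Both sets of subunit genes were expressed well above most genes. All 13 mitochondrial members and 76 of the 85 nuclear members had a deposited RPKM of at least 0.5 in every library and entered every test; no member passed through 1 group alone. The 76 nuclear members were covered by 40.9 to 11759 reads per library (median 552) and the mitochondrial members by 60.7 to 59571 reads (median 10929). Ranked among 11133 genes, the median nuclear member stood between the 87.7 and the 94.6 percentile of its library, and the median mitochondrial member between 99.3 and 99.6. The 9 members that were not tested were *Atp5s* and 8 forms whose expression is known from other tissues or states: *Cox4i2*, *Cox6a2*, *Cox6b2*, *Cox7a1*, *Cox7b2*, *Cox8b*, *Cox8c* and *Ndufa4l2*. *Cox8c* was listed at 0 in every library, and the read counts of the other 7 forms ran from 0 to 20.4. The markers of skeletal muscle and brown fat, where several of these forms are used, were close to absent, with summed scaled RPKM of at most 0.61 for the muscle list and 1.35 for the brown fat list; *Myh4* and *Mb* were at 0 in every library. Their common counterparts were abundant in WT saline, where *Cox4i1* (complex IV) measured 41.6 ± 1.06 and *Cox8a* (complex IV) 37.5 and 36.4.

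The first question was what FAEE-SAP did to these genes in WT pancreas. On scaled values, 10 nuclear and 2 mitochondrial members of complexes I, II, IV and V were called lower after FAEE-SAP, and nearly all other members had a lower mean. The median log2 fold change was -0.66 over the nuclear members and -0.90 over the mitochondrial members, against 0.02 over all 10894 genes tested, and 75 of 76 nuclear and 13 of 13 mitochondrial members were lower (48.9% of all genes were); on the deposited scale these medians were 0.66 and 0.43, against 1.24 over all genes, with 74 of 76 and 13 of 13 members higher. Called meant an adjusted p under 0.05 over all genes in limma and at least 2-fold, and none was called higher. Over all genes, 3.86% were called lower and 3.08% higher. Without the minimum fold, 19 nuclear and 11 mitochondrial members passed the adjusted threshold downward (4.75% of all genes). The FAEE-SAP libraries lay below the saline libraries without overlap for 71 of 76 nuclear and 13 of 13 mitochondrial members, where 29.5% of all genes did so. With any 1 library left out, fewer members and fewer of all genes were called. The nuclear and mitochondrial medians were then -0.64 and -0.95 without replicate 1 of WT saline and -0.72 and -0.90 without replicate 2. They were -0.69 and -0.74 without replicate 1 of WT FAEE-SAP and -0.52 and -0.93 without replicate 2. The direction of the changes rests on the scaling, while both medians lay below the median of all genes under each of the 4 scalings tried. In bulk tissue, fewer cells of a type and less RNA per cell cannot be told apart.

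**Figure D1:**
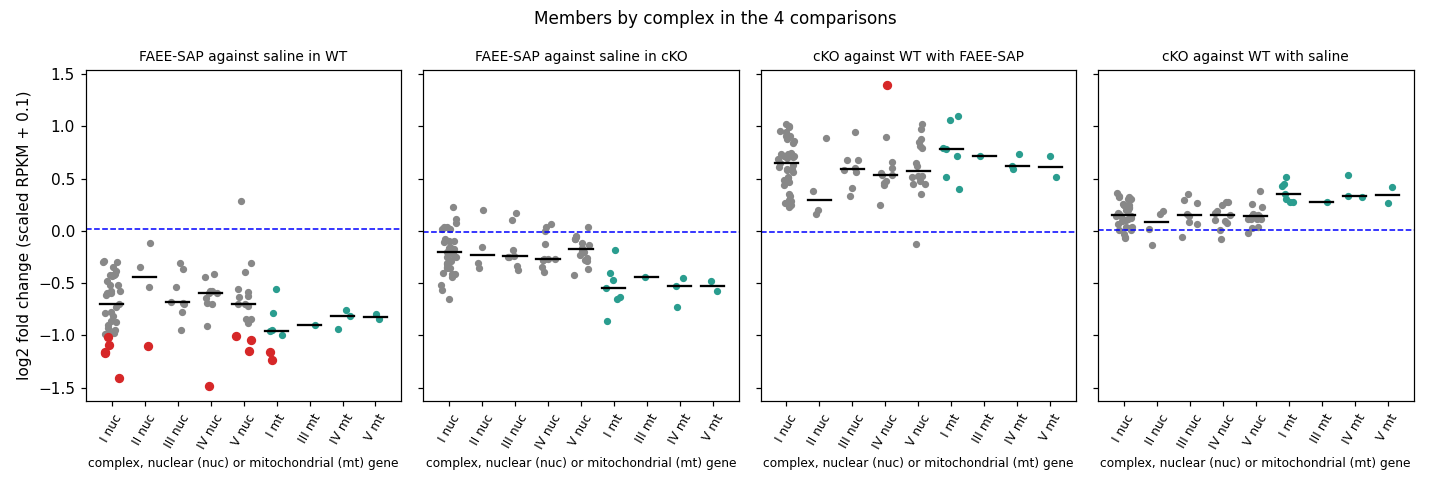
Log2 fold change of each tested member (points) by complex and genome of origin in the 4 pairwise comparisons, from scaled RPKM with 0.1 added. Black bars are medians, the dashed line is the median of all genes tested, and red points are members called at an adjusted p under 0.05 and at least 2-fold; in the WT panel nearly all points lie below the dashed line, in the panel of cKO against WT with FAEE-SAP nearly all lie above it. In these 2 panels, with values left as deposited, the medians over all nuclear and over all mitochondrial members change sign and stay on the same side of the median of all genes, for nuclear members at 0.66 against 1.24 in WT and at -0.34 against -0.91 in cKO against WT with FAEE-SAP.

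Complex I, the NADH dehydrogenase and entry point of most electrons, held 7 of the 12 called members. It also held 37 of the 76 tested nuclear members and 7 of the 13 mitochondrial members. *Ndufb11*, an accessory subunit of its membrane arm, measured 33.3 and 31.2 in WT saline and 11.7 and 12.7 in WT FAEE-SAP. The groups were far apart (-1.40 on the log2 scale, SE 0.16, adjusted p = 0.0109, limma, adjusted by Benjamini-Hochberg). *Ndufa1*, another small accessory subunit needed for assembly of the membrane arm, was 34.8 and 28.7 with saline and 14.4 and 13.8 with FAEE-SAP. It changed by -1.17 (SE 0.18, adjusted p = 0.0227, limma). *Ndufb9* was among the most abundant complex I members at 46.9 ± 3.63 with saline and fell to 22.0 ± 2.15, or -1.10 on the log2 scale (adjusted p = 0.0227, limma). *Ndufa13*, also known as GRIM-19, and *Ndufv3*, a subunit of the NADH-oxidizing module, changed by -1.16 and -1.01. *Ndufa6*, the most abundant nuclear member of complex I, was 60.6 and 56.8 with saline and 36.7 and 31.8 with FAEE-SAP; its change of -0.79 passed the adjusted threshold (adjusted p = 0.0447, limma) and not the minimum fold. All 37 tested nuclear members of complex I were lower, from -1.40 to -0.29, with a median of -0.70; as deposited, *Ndufa1*, *Ndufb9*, *Ndufa13* and *Ndufv3* were between 0.15 and 0.27 higher with FAEE-SAP.

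Complex II, the succinate dehydrogenase shared with the TCA cycle, has 4 subunits, with changes from -1.10 to -0.11. *Sdhb*, the iron-sulfur subunit, was 14.2 and 13.9 with saline and 6.60 and 6.48 with FAEE-SAP. It fell by 1.10 on the log2 scale (SE 0.17, adjusted p = 0.0227, limma), and the libraries within each group lay close together. *Sdhd*, a membrane anchor, was 12.4 and 10.7 with saline and 11.1 and 10.3 with FAEE-SAP, so the groups overlapped. Its change of -0.11 (SE 0.18, adjusted p = 0.741, limma) was the smallest of any nuclear member on scaled values. That rank depends on the scaling: as deposited, *Sdhb* changed by 0.21 and *Ndufb11* by only -0.08. The catalytic subunit *Sdha* and the second anchor *Sdhc*, named to complete the complex, were -0.53 and -0.34 and were not called. The ratio of *Sdhb* to *Sdhd* within a library is free of scaling. Under saline it was 1.14 and 1.31 for WT and 1.51 and 1.48 for cKO, and under FAEE-SAP 0.593 and 0.629 for WT and 0.973 and 1.05 for cKO, so the WT FAEE-SAP libraries were the lowest of the 8; the pair was chosen after the values were seen.

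Complex III, which carries electrons from ubiquinol to cytochrome c, had no nuclear member called on scaled values. All 8 were lower there (median -0.68) and none overlapped between the groups, where 29.5% of all genes were lower without overlap. As deposited, the median nuclear member of the complex was higher with FAEE-SAP, at 20.9 and 18.8 against 11.3 and 13.8 with saline. *Uqcrh*, the hinge protein that binds cytochrome c1, was 29.5 and 27.3 with saline and 18.3 and 17.3 with FAEE-SAP (-0.68, adjusted p = 0.0600, limma). *Uqcrfs1*, the Rieske iron-sulfur protein, was 26.2 and 22.9 against 15.9 and 14.4 (-0.70, adjusted p = 0.0661, limma). The largest difference in the complex was that of *Uqcr11*, at -0.95 (adjusted p = 0.0318, limma), short of 2-fold.

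Complex IV, the cytochrome c oxidase, gave the largest decrease of all members. *Cox7b*, a small nuclear subunit, was 17.9 and 18.7 in WT saline and 6.85 and 6.21 in WT FAEE-SAP. The groups were far apart, at -1.48 on the log2 scale (SE 0.17, adjusted p = 0.0107, limma). With the values as deposited *Cox7b* still had a lower mean with FAEE-SAP, at -0.17, as did *Ndufb11*, at -0.08, while the other 10 called members turned to a higher mean. The most abundant nuclear members of the complex changed less: *Cox4i1*, the main regulatory subunit, was 40.9 and 42.4 with saline and 27.7 in each FAEE-SAP library (-0.59, adjusted p = 0.0703, limma), and *Cox7a2l* was 50.4 and 46.1 against 32.1 and 33.0 (-0.57, adjusted p = 0.0800, limma). The ratio of *Cox7b* to *Cox4i1* within a library, chosen in the same way, was 0.439 and 0.441 for WT and 0.573 and 0.393 for cKO under saline, and 0.247 and 0.224 for WT and 0.492 and 0.419 for cKO under FAEE-SAP, again lowest in the WT FAEE-SAP libraries. On scaled values, all 11 tested nuclear members of complex IV were lower without overlap, where 29.5% of all genes were. Of these 11, 1 was called, where 3.86% of all genes were called lower. As deposited, the median of the 11 was higher with FAEE-SAP, at 35.1 and 29.4 against 19.2 and 20.6 with saline.

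Of complex V, 3 nuclear members were called lower on scaled values, and as deposited all 3 had a higher mean. *Atp5g1* encodes the c subunit of the rotor ring, and was 3.04 and 3.70 with saline and 1.57 and 1.39 with FAEE-SAP (-1.14, adjusted p = 0.0382, limma). *Atp5j2*, the f subunit of the membrane sector, went from 16.2 and 20.8 to 9.40 and 8.41 (-1.04, adjusted p = 0.0382, limma). *Atp5o*, the subunit that joins the stator to the catalytic head, was 12 and 11.5 against 5.85 and 5.86 (-1.0, adjusted p = 0.0299, limma). The mature c subunit is also made from *Atp5g2* and *Atp5g3*, named here for that reason after their values were seen; they were more abundant than *Atp5g1* per length and were lower by less, at -0.70 and -0.30, without being called. The catalytic beta subunit *Atp5b* was 43.0 and 36.8 with saline and 28.2 and 25.3 with FAEE-SAP (-0.58, adjusted p = 0.0973, limma). *Atp5l*, the g subunit, was 50.8 and 42.5 against 31.5 and 28.9 (-0.63, adjusted p = 0.0838, limma). *Atp5sl*, which is no subunit, was the only nuclear member with a higher mean (0.29, adjusted p = 0.533, limma), and its groups overlapped.

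**Figure D2:**
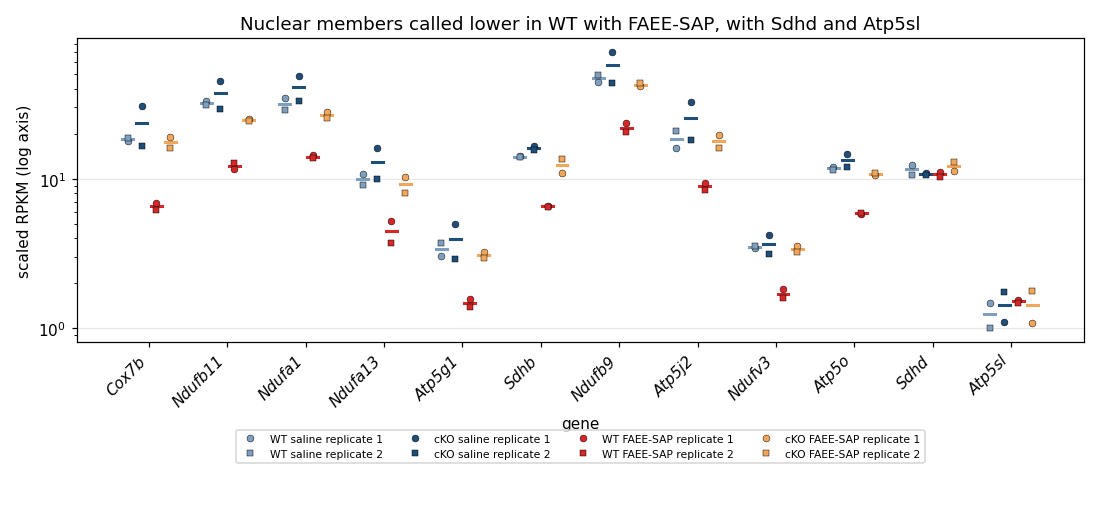
Scaled RPKM (log axis) of the 10 nuclear members called lower in WT with FAEE-SAP, with *Sdhd* and *Atp5sl* beside them, in each of the 8 libraries; circles are replicate 1, squares replicate 2 and bars group means. For the 10 called members the red WT FAEE-SAP points lie below the other 6 libraries, for *Cox7b* at 6.21 and 6.85 against 16.1 to 30.7, an order that depends on the scaling; for *Sdhd* and *Atp5sl* the WT FAEE-SAP and WT saline points overlap.

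The 3 nuclear members with the largest decreases, *Cox7b*, *Ndufb11* and *Ndufa1*, were also the only 3 members on the X chromosome, a match noticed after the values were seen. The 296 X-linked genes tested had a median of -0.13. Among the genes of the other mitochondrial lists, the 4 on the X chromosome were lower too, with a median of -0.96: *Pdha1* (E1 alpha subunit of pyruvate dehydrogenase, -1.04), *Hsd17b10* (a subunit of mitochondrial RNase P, -0.99), *Idh3g* (isocitrate dehydrogenase, -0.93) and *Slc25a5* (an ADP/ATP carrier, -0.58). In cKO against WT with FAEE-SAP these 7 genes were all higher in mean, from 0.45 to 1.40, but so were 75 of the 76 nuclear members. The 295 X-linked genes tested there had a median of 0.14. All animals were male. As deposited, the changes in WT were -0.17 for *Cox7b*, -0.08 for *Ndufb11* and 0.15 for *Ndufa1*.

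Promoter sequences are printed for the 3 X-linked members and for *Sdhd*, the nuclear member that moved least on scaled values, to set the extremes beside each other. These extremes rest on the scaling, since as deposited *Cox7b* and *Ndufb11* changed by only -0.17 and -0.08. The sequences are the 120 bases before the start of the gene in RefSeq (GRCm38.p6), 5′ to 3′ on the strand of the gene, with matches to the motifs searched in capitals. The GENCODE start is the same base for *Cox7b* and *Ndufb11*, while the RefSeq start lies 75 bases before it for *Ndufa1* and 37 before it for *Sdhd*, so these windows depend on the annotation. *Cox7b* lies on the plus strand (chrX:106015580-106015699), *Ndufb11* and *Ndufa1* on the minus strand (chrX:20617620-20617739 and chrX:37191239-37191358), and *Sdhd* on the minus strand (chr9:50603850-50603969).
Cox7b: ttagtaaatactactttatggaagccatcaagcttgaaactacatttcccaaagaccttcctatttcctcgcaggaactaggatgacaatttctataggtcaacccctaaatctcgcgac
Ndufb11: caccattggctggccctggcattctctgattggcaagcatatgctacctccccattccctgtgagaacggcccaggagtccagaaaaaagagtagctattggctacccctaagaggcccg
Ndufa1: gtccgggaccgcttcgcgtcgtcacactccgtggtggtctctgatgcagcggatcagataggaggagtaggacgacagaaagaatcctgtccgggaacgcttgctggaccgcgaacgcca
Sdhd: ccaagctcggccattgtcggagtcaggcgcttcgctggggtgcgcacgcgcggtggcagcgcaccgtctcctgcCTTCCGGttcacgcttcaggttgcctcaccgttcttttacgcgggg
The motifs were the cores GCATGCGC of NRF1 and CCGGAAG of the ETS family, to which GABPA belongs, AAGATGGC of YY1 and the box GGGCGG of Sp1, on both strands. These factors are textbook regulators of respiratory genes. Windows of 300 bases (250 before and 50 after the start) were found for 67 of the 85 nuclear members, 72 windows in all, and for none of the mitochondrial genes. The NRF1 core stood in 13.9% of the member windows and in 2.71% of all 32851 windows, the ETS core in 22.2% and 8.86%, the YY1 core in 12.5% and 2.75%, and the Sp1 box in 38.9% and 35.7%. Among tested members, the median change in WT was -0.66 for the 10 genes with the NRF1 core and -0.70 for the 53 without it, and -0.68 for the 16 with the ETS core and -0.70 for the 47 without it. It was -0.78 for the 9 with the YY1 core and -0.68 for the 54 without it, and -0.70 for the 25 with the Sp1 box and -0.68 for the 38 without it. Of the printed stretches, that of *Sdhd* holds an ETS core, and those of the X-linked members hold none of the motifs; the windows of *Ndufa1* and *Sdhd* each have an Sp1 box outside the printed stretch.

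All 13 mitochondrial genes had a lower scaled mean with FAEE-SAP in WT, by 0.55 to 1.24 on the log2 scale, and 2 were called. *mt-Nd2* of complex I was 211 and 275 with saline and 91.9 and 114 with FAEE-SAP, or -1.24 on the log2 scale (SE 0.20, adjusted p = 0.0255, limma). *mt-Nd4l* of complex I was 232 and 250 against 110 and 106, a change of -1.16 (SE 0.14, adjusted p = 0.0117, limma). These were the 2 called members, and their groups were well apart. After quantile normalization neither was called (-0.81, adjusted p = 0.0781, and -0.83, adjusted p = 0.0172, both limma and short of 2-fold), and the mitochondrial median was -0.50. *mt-Nd1*, *mt-Nd3* and *mt-Nd4* were at -0.96, -0.94 and -0.99. *mt-Cytb*, the cytochrome b of complex III, was 677 and 732 against 349 and 412 (-0.90, adjusted p = 0.0289, limma). The catalytic core of complex IV was the most abundant: *mt-Co1* was 989 and 1038 with saline and 556 and 601 with FAEE-SAP (-0.82, adjusted p = 0.0276, limma), with *mt-Co2* at -0.75 and *mt-Co3* at -0.94. Of complex V, *mt-Atp6* was 851 and 967 against 474 and 581 (-0.80, adjusted p = 0.0447, limma), and *mt-Atp8* was at -0.84. *mt-Nd5* (-0.78, adjusted p = 0.0540) and *mt-Nd6* (-0.55, adjusted p = 0.146, both limma) missed the adjusted threshold. As deposited, all 13 had a higher mean with FAEE-SAP, *mt-Nd2* by 0.087 and *mt-Nd4l* by 0.16.

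*mt-Nd6*, the only one of the 13 on the minus strand of the mitochondrial genome as annotated, was the least abundant, at 6.34 and 5.29 in WT saline. Some of these genes share bases, so their values are not separate measurements. The last 43 bases of *mt-Atp8* (21.1% of its 204 bases) are the first 43 of *mt-Atp6*, and *mt-Nd4l* shares 7 bases with *mt-Nd4*. The shared stretch, read from the GENCODE transcripts with the start codon of *mt-Atp6* in capitals, was as follows.
mt-Atp8 and mt-Atp6: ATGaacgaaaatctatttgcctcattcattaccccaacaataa
*mt-Nd5* and *mt-Nd6* overlap at their ends on opposite strands, and whether the counting used the strand was not given in the sources used here. Nuclear copies of mitochondrial sequence could take or give reads in the same way.

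**Figure D3:**
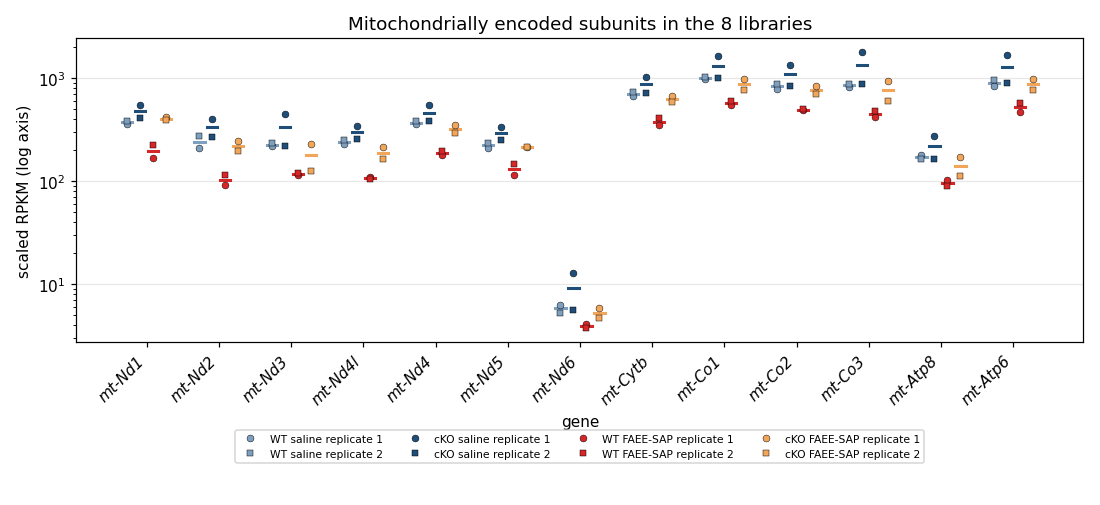
Scaled RPKM (log axis) of the 13 mitochondrially encoded members in each of the 8 libraries, colored by group; circles are replicate 1, squares replicate 2 and bars group means. For every gene both WT FAEE-SAP points lie below the other 6, for *mt-Co1* at 556 and 601 against 773 to 1653, an order that depends on the scaling, and replicate 1 of cKO saline is the highest point throughout.

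The second question was whether cKO pancreas with FAEE-SAP differed from WT with the same treatment. On scaled values, 1 member was called higher in cKO, and nearly all others had a higher mean. The median log2 fold change was 0.60 over the nuclear and 0.72 over the mitochondrial members, against -0.01 over 11008 genes tested, with 75 of 76 and 13 of 13 higher (49.3% of all genes were); on the deposited scale they were -0.34 and -0.24, against -0.91 over all genes, with 69 of 76 and 11 of 13 lower. The called member, *Cox7b*, was 18.9 and 16.1 in cKO FAEE-SAP and 6.85 and 6.21 in WT FAEE-SAP, or 1.40 on the log2 scale (SE 0.19, adjusted p = 0.0403, limma). Over all genes, 0.863% were called higher. At an unadjusted p under 0.05 there were 50 nuclear and 10 mitochondrial members, all higher in cKO, where 10.8% of all genes were. The groups did not overlap, with cKO higher, for 72 of 76 nuclear and 13 of 13 mitochondrial members, against 26.1% of all genes. The call of *Cox7b* was lost when any of the 4 libraries was left out, after quantile normalization (adjusted p = 0.0691, limma), as deposited, without a filter and without the variance trend. Quantile normalization also moved the mitochondrial median to 0.37.

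After *Cox7b*, the largest differences among nuclear members were those of *Ndufa13* (10.2 and 8.08 in cKO, 5.20 and 3.71 in WT) and *Atp5g1* (3.25 and 2.96 in cKO, 1.57 and 1.39 in WT). Their log2 fold changes were 1.03 (adjusted p = 0.126, limma) and 1.02 (adjusted p = 0.0999, limma), and neither was called. By complex, the nuclear medians were 0.65 in complex I, 0.29 in complex II, 0.59 in complex III, 0.54 in complex IV and 0.57 in complex V. *mt-Nd2* (1.10) and *mt-Nd1* (1.06) led the mitochondrial genes, with adjusted p = 0.0781 and 0.0797 (limma). *Atp5sl* was the only member with a lower mean in cKO (-0.12). This comparison and that of FAEE-SAP with saline in WT share the WT FAEE-SAP libraries, so their opposite directions are not separate evidence.

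In cKO, FAEE-SAP against saline gave medians of -0.20 (nuclear, 63 of 76 lower) and -0.53 (mitochondrial, 13 of 13 lower), against -0.01 over 9423 genes, of which 51.5% were lower. No member was called by limma, and 1 nuclear member had an unadjusted p under 0.05 (3.8% of all genes did, downward). Of all genes, 0% were called lower and 0.0531% higher. That member was *Ndufa6*, at 91.3 and 62.0 with saline and 48.9 and 44.8 with FAEE-SAP (-0.65, unadjusted p = 0.0473 and adjusted p = 0.524, limma). *Ndufs8*, an iron-sulfur subunit of complex I, and *Sdhd* had the largest higher means, at 0.23 and 0.20. Without replicate 1 of cKO saline the medians were -0.01 and -0.19, and without replicate 2 they were -0.35 and -0.84. On the deposited scale they were 0.40 and 0.092, against 0.57 over all genes.

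With saline, cKO against WT gave medians of 0.15 (nuclear, 69 of 76 higher) and 0.33 (mitochondrial, 13 of 13 higher), against 0.01 over 8715 genes, of which 52.3% were higher. No gene of any kind was called by limma (0% in each direction), and no member had an unadjusted p under 0.05. The largest positive value was that of *mt-Co3* (0.54). Among nuclear members it was that of *Atp5j2*, 0.38, with 32.5 and 18.2 in cKO and 16.2 and 20.8 in WT, and the groups overlapped. These differences rested on replicate 1 of cKO saline: without it the medians were -0.04 and 0.01, and without replicate 2 they were 0.30 and 0.66. For *mt-Co3* that library measured 1816, where the other cKO saline library had 884 and the WT saline libraries 824 and 889. The scaling mattered too. As deposited the medians were -0.12 and 0.054, against -0.25 over all genes, and 65 of 76 nuclear members were lower.

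The third question was whether the response to FAEE-SAP itself differed between genotypes. The interaction, the log2 change with FAEE-SAP in cKO minus that in WT, had a median of 0.45 over nuclear members (72 of 76 above 0) and 0.28 over mitochondrial members (12 of 13 above 0), against 0.02 over 11133 genes, of which 51.2% were above 0. The mitochondrial median was -0.074 without replicate 2 of cKO saline (7 of 13 below 0) and 0.044 after quantile normalization (6 of 13 below 0). No member passed the adjusted threshold in limma, while 11 nuclear and 1 mitochondrial member had an unadjusted p under 0.05, all above 0; of all genes, 0.0449% were called above 0 and 6.17% had an unadjusted p under 0.05 in that direction. The largest was *Cox7b*, 1.10 (SE 0.39, adjusted p = 0.338, limma). *Ndufv3* and *Ndufs8* followed at 0.89 each. A difference between the responses was thus not shown for any single member at 2 libraries per group. As deposited, the medians of the interaction were -0.21 and -0.38, against -0.63 over all genes.

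Measures taken within a library do not involve scaling. The median percentile of the 76 nuclear members among all ranked genes was 93.7 and 93.6 for WT and 94.6 and 93.1 for cKO under saline. Under FAEE-SAP it was 90.2 and 87.7 for WT and 93.6 and 93.2 for cKO. The WT FAEE-SAP libraries were the lowest of the 8. The ratio of summed mitochondrial to summed nuclear RPKM was 4.83 and 5.41 for WT and 6.63 and 5.21 for cKO under saline, and 4.03 and 5.07 for WT and 5.50 and 4.28 for cKO under FAEE-SAP. The groups overlapped in this ratio in each of the 4 pairwise comparisons above, whereas cKO saline and WT FAEE-SAP, which differ in both genotype and treatment, did not. The ratio of the median mitochondrial to the median nuclear member, in the same order, was 29.4 and 33.2, 35.4 and 33.3, 20.9 and 29.4, and 31.1 and 25.6. By that measure cKO saline lay above cKO FAEE-SAP, and just above WT saline, without overlap, so the overlap depends on how the genes are summarized. An exact permutation test of 2 libraries against 2 cannot give a p below 0.33.

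**Figure D4:**
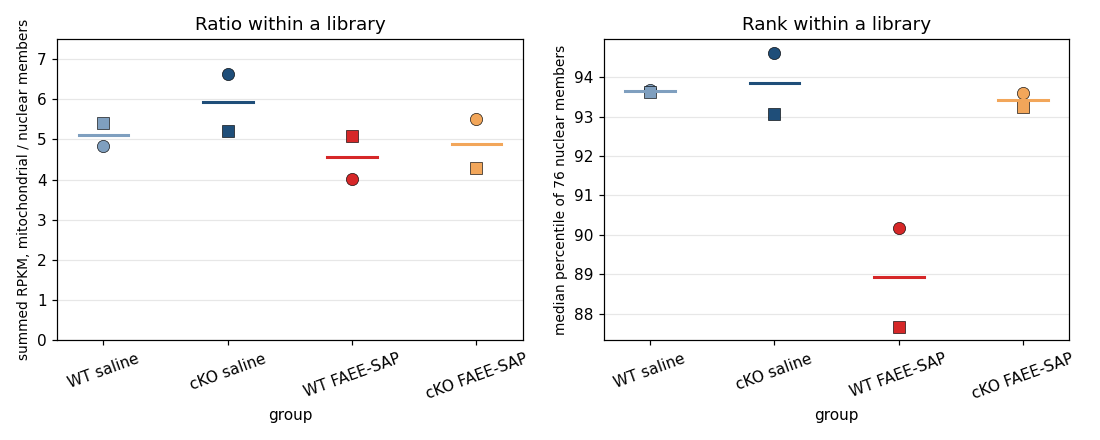
Left, the ratio of summed RPKM of the 13 mitochondrial to all 85 nuclear members in each library. Right, the median percentile of the 76 tested nuclear members among 11133 ranked genes. Circles are replicate 1, squares replicate 2 and bars group means; the ratio runs from 4.03 to 6.63, with cKO saline above WT FAEE-SAP and the other pairs of groups overlapping, while the percentile is lowest in the WT FAEE-SAP libraries, at 90.2 and 87.7.

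Over all 8 libraries, the mean of the WT FAEE-SAP group was the lowest of the 4 group means for 75 of 76 nuclear and 13 of 13 mitochondrial members on the scaled values. Both WT FAEE-SAP libraries lay below each of the other 6 for 65 nuclear and 13 mitochondrial members. This order rests on the scaling: as deposited, the median nuclear member was highest in the WT FAEE-SAP libraries, at 16.2 and 12.9 against 7.65 to 11.9 in the other 6. Across the 76 nuclear members, the change in WT was weakly related to abundance with saline (Spearman's rho -0.20) and to exonic length (rho 0.04 over the 74 members with a length); this is a description across genes that share libraries. The summed scaled RPKM of the acinar list was 483432 and 401123 for WT and 552185 and 559756 for cKO under saline and, under FAEE-SAP, 120621 and 126355 for WT and 320430 and 360765 for cKO. It was lowest in the WT FAEE-SAP libraries, also as deposited, while in cKO the deposited sums overlapped between the treatments. The islet list was lowest there on scaled values, at 183 and 241 against 287 to 453 in the other 6 libraries, but as deposited it was 370 and 467, above the 203 to 249 of the 4 saline libraries. The duct list was highest there, at 96.7 and 93.5 against 38.5 to 82.1, as was the adipocyte list, at 106 and 165 against 46.4 to 98.1. The neutrophil list was 62.5 and 57.6 in the WT FAEE-SAP libraries, 21.4 and 13.4 in those of cKO, and 1.51 to 4.19 with saline, where *Ly6g* was at 0 in all 4 libraries. The part of these cell types in the subunit differences was not tested.

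Other mitochondrial genes were set beside the subunits, with no test of the difference between lists. The mitochondrial ribosomal proteins (76 tested) had a median of 0.01 in WT with FAEE-SAP against saline, with 38 higher and 38 lower and 1 called, *Mrpl42* (-1.28, adjusted p = 0.0184, limma). The nuclear subunits lay 0.67 below them, 0.58 below as deposited, 0.66 below with trimmed mean scaling and 0.60 below after quantile normalization. The mitochondrial genes lay 0.91 below them, 0.81 below as deposited and 0.51 below after quantile normalization. The assembly factors of the complexes (44 tested) had a median of -0.07 and no call. At an unadjusted p under 0.05, 3 of them were higher and 7 lower, where 13.1% of all genes were higher and 14.6% lower; of the subunits, 55 of 76 nuclear and 13 of 13 mitochondrial members were lower at that threshold and none was higher. The genes that maintain and express mitochondrial DNA (24 tested) had a median of 0.10 and no call, and 1 at an unadjusted p under 0.05, *Hsd17b10*, which passed the adjusted threshold (-0.99, adjusted p = 0.0326, limma) and not 2-fold. The regulators of mitochondrial biogenesis (9 tested) had a median of 0.07 and no call, and 1 at an unadjusted p under 0.05, *Myc* (-1.18, adjusted p = 0.0556, limma).

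The genes that feed the chain lay between. Pyruvate dehydrogenase and the TCA cycle (17 tested) had a median of -0.33, with 15 lower and 2 called lower, *Pdha1* (-1.04, adjusted p = 0.0322) and *Suclg2*, a subunit of succinyl-CoA synthetase (-1.10, adjusted p = 0.0490, both limma). The carriers, porins and electron carriers (19 tested) had a median of -0.42, with 2 called lower. *Etfa*, which brings electrons from fatty acid oxidation, was at -1.48 (adjusted p = 0.0125, limma). *Nnt*, the proton-translocating transhydrogenase, was 1.63 and 1.60 for WT and 4.15 and 4.31 for cKO under saline, and 0.416 and 0.327 for WT and 1.99 and 1.86 for cKO under FAEE-SAP. It was higher in cKO than in WT with FAEE-SAP (2.17, adjusted p = 0.0255, limma); with saline the groups did not overlap (1.29), and the difference missed the threshold (adjusted p = 0.591, limma). The gene is known to carry a deletion of exons in C57BL/6J mice. Whether WT and cKO mice, which came from different sources, differed in substrain was not tested. As deposited, the medians of these 6 lists in WT were all positive, from 0.85 to 1.32. In cKO against WT with FAEE-SAP the medians were 0.09 for the mitochondrial ribosomal proteins, 0.02 for the assembly factors, -0.18 for the genes of mitochondrial DNA, -0.23 for the regulators, 0.28 for the TCA cycle and 0.41 for the carriers, beside 0.60 for the nuclear subunits.

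**Figure D5:**
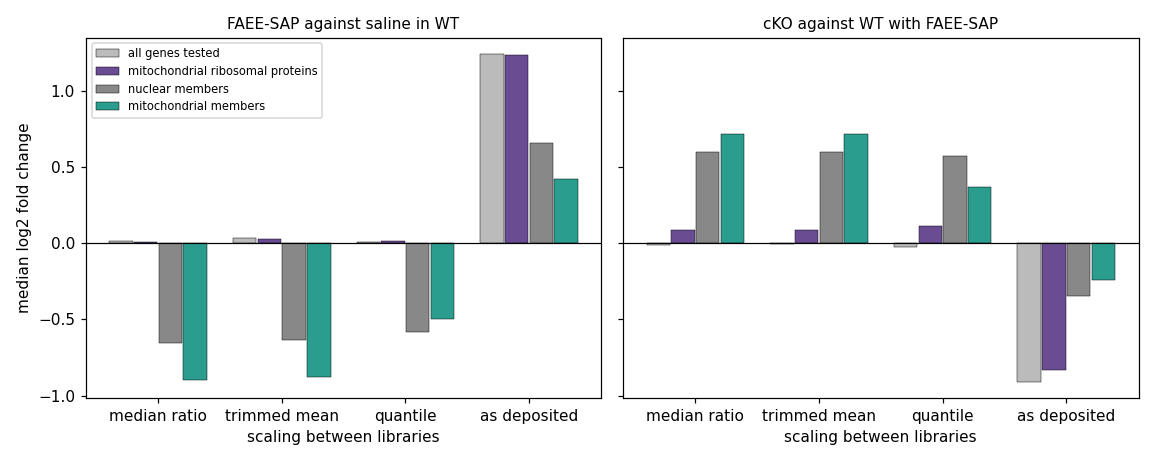
Median log2 fold change of nuclear members, mitochondrial members, mitochondrial ribosomal proteins and all genes tested under 4 ways of scaling the libraries, for FAEE-SAP against saline in WT (left) and cKO against WT with FAEE-SAP (right). With median-ratio scaling the members lie below 0 on the left (-0.66 and -0.90) and above 0 on the right (0.60 and 0.72); as deposited every bar shifts, the members to 0.66 and 0.43 on the left. In all 4 scalings both sets of members lie below the ribosomal proteins and all genes on the left and above them on the right.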

How the data were processed

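Pancreatic RNA of 8 libraries (2 in each of 4 groups) was analyzed from the RPKM values that the authors deposited, which relate reads to exon length and to the depth of the library. Per the labels, total RNA was made into directional libraries, reads were trimmed with fastp, and the genome build was GRCm38.p6. The study's methods name CLC Genomics Workbench for mapping; how expression was counted and whether strand was used were not given in the sources used here. Read totals were recovered from the steps of low RPKM values; 84.5% to 85.8% of the values tested came within 0.1 of a whole read, too few for a count test. Libraries were scaled by the median ratio over genes (over 8 libraries for printed levels, within each comparison for tests). Genes with RPKM of at least 0.5 in 2 libraries were tested as log2(scaled RPKM + 0.1) in limma 3.58.1 (R 4.3.3) with a variance trend and Benjamini-Hochberg adjustment over all genes. Such fold changes understate changes of low genes. Called meant an adjusted p under 0.05 and at least 2-fold. The p-values measure the spread between libraries, since the labels do not say that libraries of a group came from separate animals.

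Coordinates and lengths came from GENCODE vM21, where 96 of 98 members matched by symbol; *Atp5sl* and *Atp5o* did not. Named were all mitochondrial members, the 2 most abundant nuclear members of each complex, the 3 largest changes in each direction per comparison, called members, tissue-restricted forms and the largest changes of other lists. Members and lists were chosen with earlier results of these data known. Fits were tested on simulated data. Other scalings, filters, pseudocounts, a replicate block and left-out libraries were tried as alternatives.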

Additional observations from a re-analysis of the deposited data

How the results depend on the processing

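The choice that decided direction was scaling. With the values as deposited, median log2 fold changes of nuclear and mitochondrial members were -0.12 and 0.054 (cKO against WT, saline), -0.34 and -0.24 (cKO against WT, FAEE-SAP), 0.66 and 0.43 (FAEE-SAP against saline in WT), 0.40 and 0.092 (the same in cKO), and -0.21 and -0.38 (interaction). In the same order, the deposited medians over all genes were -0.25, -0.91, 1.24, 0.57 and -0.63. Called members of the WT comparison turned to positive values: *Ndufa1* 0.15, *Sdhb* 0.21, *Atp5j2* 0.27, *Ndufa13* 0.15, *Atp5g1* 0.13, *Ndufb9* 0.22, *Atp5o* 0.31, *Ndufv3* 0.27, *mt-Nd2* 0.087 and *mt-Nd4l* 0.16. Quantile normalization, which also kept every median's sign, moved the mitochondrial medians to 0.37 (cKO against WT, FAEE-SAP), -0.50 (WT) and 0.044 (interaction). With any other setting that kept all libraries, no median of the members changed its sign.

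Numbers of calls moved more. As deposited, 6 nuclear members were called in WT, all of them higher with FAEE-SAP (*Atp5sl* by 1.54, adjusted p = 0.00261, limma), and none of the 12 members called lower on scaled values was called lower; 7270 of all genes were called there. The 10 nuclear calls on scaled values (755 over all genes) became 6 after quantile normalization (650), 6 with a pseudocount of 1 (506) and 5 without the variance trend (593). They became 2 without a filter (259), 8 with trimmed mean scaling (737), 12 with an RPKM minimum of 2 (614) and 19 without a minimum fold (881). The 2 mitochondrial calls became 0 as deposited and after quantile normalization, 1 without a filter or without the trend, 4 with an RPKM minimum of 2 and 11 without a minimum fold. In cKO against WT with FAEE-SAP, the single call as deposited was *Atp5sl*, lower in cKO (-1.04, adjusted p = 0.0262), while *Cox7b* was not called (0.45, adjusted p = 0.110, both limma), with 4427 genes called in all. The nuclear call (1) of *Cox7b* (140 over all genes) became 0 after quantile normalization (78), without a filter (0) and without the trend (57). It became 2 with an RPKM minimum of 2 (141). By an unadjusted p with 2-fold there were 4 nuclear and 2 mitochondrial members. With all 8 libraries in 1 model there was 1 mitochondrial call (295 over all genes). The interaction had 1 nuclear member by an unadjusted p with 2-fold.

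Replicate numbers are shared between groups, but no label says that they mark a shared origin, and with 2 pairs they share only a number. Deviations of same-numbered libraries correlated at -0.40 (saline), 0.31 (FAEE-SAP), -0.18 (WT) and 0.45 (cKO) over genes. With the replicate number as a block, 2 nuclear and 2 mitochondrial members were called in WT, and 4 nuclear and 2 mitochondrial members in cKO against WT with FAEE-SAP. Over all genes the block moved the calls from 755 to 442 in WT and from 140 to 568 in cKO against WT with FAEE-SAP. Crossed pairs, an alternative added after seeing the data, gave 9 nuclear and 2 mitochondrial calls in WT, and 0 among the members in the saline comparison and the interaction.

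Leaving out 1 library gave 0 to 3 nuclear and 0 to 1 mitochondrial calls in WT, and 0 nuclear calls throughout in cKO against WT with FAEE-SAP. Over all genes, too, fewer were called in each of these fits than with all libraries kept, so the loss of calls was not limited to the members. With 1 library left out, mitochondrial medians ranged from -0.95 to -0.74 in WT and from -0.84 to -0.19 in cKO. They ranged from 0.011 to 0.66 in the saline comparison and from -0.074 to 0.68 in the interaction. The nuclear median of the interaction ranged from 0.27 to 0.63. The value of -0.074 came without replicate 2 of cKO saline. The cause was not tested. The tested nuclear members rested on 40.9 to 11759 reads per library, and each group on 2 libraries.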
